A study of Mus musculus with 8 samples.

Results

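The Ifi200 family genes are the mouse interferon-inducible PYHIN genes, which encode DNA-binding proteins of the immune system. The genes described here were chosen by name, as the rows whose Ensembl identifier carries the symbol Ifi203, Ifi204, Ifi205, Ifi207, Ifi209, Ifi211, Ifi213, Mnda or Mndal. These 9 symbols gave 8 genes out of the 55359 genes in the deposited table. Mnda has no entry of its own in the GENCODE vM39 annotation used for naming, and RefSeq lists it as an older symbol of Ifi211, so it was counted there. The 6 other genes of the same cluster (Aim2, Ifi202b, Ifi206, Ifi208, Ifi214 and the pseudogene Ifi203-ps) served for comparison.

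RNA was sequenced from bone marrow-derived macrophages (BMDMs) of C57BL/6 mice (adults of both sexes), which were differentiated with M-CSF and GM-CSF at 20 ng/mL each. There were 4 groups with 2 samples each. Ctrl stands for naïve Mϕ without stimulation, and LPS for naïve Mϕ given 100 ng/mL LPS, a bacterial cell wall component, together with 100 U/mL IFNγ for 6 h. Eff stands for efferocytic Mϕ, which had been co-cultured for 16 h with apoptotic NIH-3T3 CA fibroblasts at 5 apoptotic cells per Mϕ, and LPSEff for efferocytic Mϕ that then received the same LPS/IFNγ stimulation. The NIH-3T3 CA line is a clone of a mouse fibroblast line that carries a caspase-8 which a small molecule (dimerizer, 10 nM) can activate, and the dimerizer was given for 6 h before co-culture and stayed present during it. The efferocytic Mϕ were thus exposed to dimerizer as well, and whether the naïve Mϕ were is not given in the sources used here. CD45+ cells were enriched with magnetic beads before RNA was taken, so fibroblast RNA could still be present. Because the samples are bulk cultures, fewer cells of a type and less RNA per cell cannot be told apart. The labels do not say whether the 2 samples of a group came from separate mice or cultures, so p-values measure only the spread between these samples, which may be technical.

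PYHIN proteins carry a HIN domain that binds double-stranded DNA, and most also carry a pyrin domain, through which they assemble with other pyrin proteins. In macrophages, AIM2 recruits the adaptor ASC (gene Pycard) and caspase-1 to cytosolic DNA, whereas p204 (gene Ifi204), often compared with human IFI16, is linked to type I interferon induction through STING. The genes of the family are known interferon targets, and the interferon-stimulated response element (ISRE) and the gamma-activated sequence (GAS) are the promoter elements bound by the interferon-activated factors (IRF and STAT proteins).

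All 14 PYHIN genes lie on chromosome 1 of GRCm39, from position 173178445 to 173859456, and the 8 members lie between 173393846 and 173859456. Of the members, 7 are on the minus strand and Ifi209 is on the plus strand. The genes are close copies of each other, which bears on their counts. Of all 50-base windows in a gene's annotated transcripts, 92.6% occurred in no other gene for Ifi207, 88.1% for Ifi213, 84.7% for Ifi203, 81.7% for Ifi205, 79.7% for Mndal and 79.4% for Ifi204. The share was 65.8% for Ifi209, which shares windows with Ifi214, and 31.5% for Ifi211, which shares them with Ifi205 and Ifi204. Over the canonical transcript of each gene alone, the share was 26.6% for Ifi211, 54.1% for Ifi205, 64.5% for Ifi209, 68.6% for Mndal and 71.4% for Ifi204. It was 73.7% for Ifi213, 78.8% for Ifi203 and 93.0% for Ifi207. Counts of the members, above all of Ifi211, Ifi205 and Ifi209, are therefore uncertain, since reads that fit several genes are not assigned to 1 of them. Mndal also overlaps exons of Gm38050 on the same strand.

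**Figure D1:**
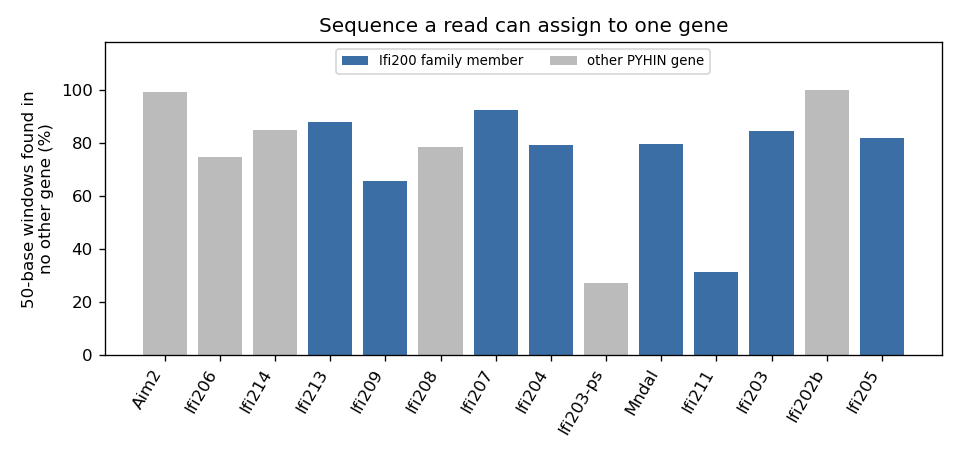
Percent of the 50-base windows of each PYHIN gene's transcripts that occur in no other gene (y axis), with genes in chromosomal order (x axis), blue for the 8 members and grey for the other PYHIN genes. Ifi211 has the lowest share among the members at 31.5%, and Ifi207 the highest at 92.6%.

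The promoters were read from the reference genome, since the members moved together. The core of the ISRE (GAAA, any 2 bases, GAAA, searched on both strands) was present within 250 bases upstream of the annotated start of 6 of 8 members and 3 of 6 other PYHIN genes, against 3.32% of 21770 protein-coding promoters. The windows of 60 bases around it in GRCm39 are shown for the 6 members, on the strand of the gene, because they show how close the copies are. Capitals mark the core.

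Ifi213, chr1:173426882-173426941, minus strand: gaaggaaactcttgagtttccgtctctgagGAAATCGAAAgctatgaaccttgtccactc
Ifi207, chr1:173569384-173569443, minus strand: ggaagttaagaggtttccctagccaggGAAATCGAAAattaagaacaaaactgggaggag
Ifi204, chr1:173594612-173594671, minus strand: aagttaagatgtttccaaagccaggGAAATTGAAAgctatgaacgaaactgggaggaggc
Mndal, chr1:173707755-173707814, minus strand: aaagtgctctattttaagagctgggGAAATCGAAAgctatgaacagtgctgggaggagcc
Ifi211, chr1:173740615-173740674, minus strand: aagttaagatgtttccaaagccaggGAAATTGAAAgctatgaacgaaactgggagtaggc
Ifi203, chr1:173770059-173770118, minus strand: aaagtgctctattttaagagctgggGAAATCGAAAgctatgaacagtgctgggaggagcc

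The core began 30 bases upstream of the start in Ifi213, 33 in Ifi207, 36 in Ifi204, 37 in Ifi211, 54 in Mndal and 57 in Ifi203. Over the 50 bases that could be compared in all of them (30 before the core, the core and the bases after it), Mndal and Ifi203 were 100% identical, as were Ifi204 and Ifi211, while Ifi207 and Ifi204 shared 82%. In Ifi205 the same core began at base 2 after the start, so 7 of 8 members held it when the window also took in 50 bases after the start, against 3.84% of promoters. Ifi209 held only a match with 1 mismatch, 34 bases upstream, and 32.6% of promoters have a match that close. Of the other PYHIN genes, Aim2, Ifi202b and Ifi203-ps had no match closer than 2 mismatches. The GAS (TTCNNNGAA) was found in no member promoter, against 7.70% of promoters. It was found in 1 of the 6 other PYHIN genes, Ifi202b, 144 bases upstream. A match is a description of letters and does not show that a factor binds there.

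**Figure D2:**
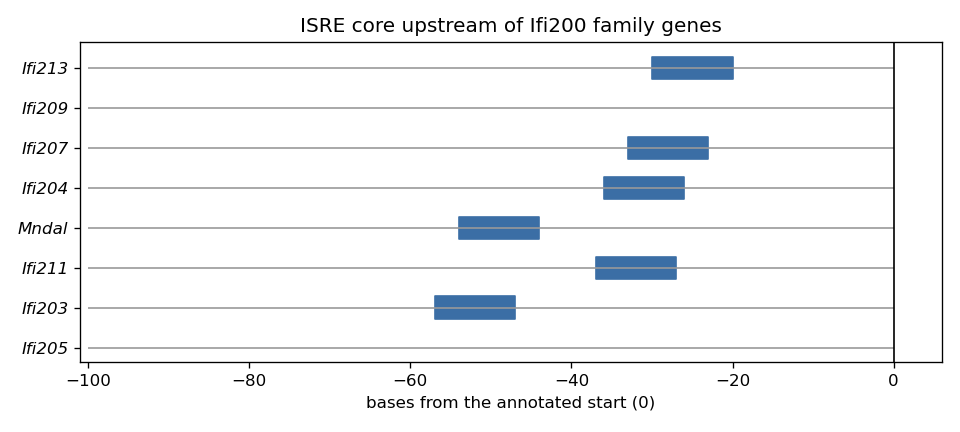
Position of the ISRE core (blue bars) in bases from the annotated transcription start (x axis) for each member, in chromosomal order from the top. In 6 of 8 members the core lies between the start and 57 bases upstream of it, and Ifi209 and Ifi205 have none upstream.

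The recovered read depth was 3481288 to 12020918 per sample, and 3 reads corresponded to 1.73 to 5.71 normalized counts (reads divided by the sample's size factor). Normalized totals were 6.59e+06 to 6.95e+06 without LPS/IFNγ and 8.47e+06 to 9.49e+06 with it. All 12 macrophage marker genes were detected, with a summed level of 111767 to 187928, and 4 and 5 of them rose with LPS/IFNγ in naïve and efferocytic Mϕ, with Cd14, Mertk and Cybb rising most, while lymphocyte markers summed to at most 22.0. Dendritic cell markers (8 genes) ranged in summed level over 8121 to 23223 (Ctrl), 19560 to 49008 (LPS), 5496 to 15899 (Eff) and 15948 to 28885 (LPSEff), and 2 (Xcr1 and Ccr7) and 1 (Ccr7) of the 6 tested rose with LPS/IFNγ in naïve and efferocytic Mϕ. Neutrophil markers (8 genes) summed to 723 to 1118, 1865 to 2213, 1143 to 1618 and 1868 to 2647 in the same order, and of the 6 tested 3 rose with LPS/IFNγ in naïve Mϕ (Camp, Ngp and S100a8), 1 in efferocytic Mϕ (Camp) and 1 in Eff vs Ctrl (S100a8). The calls of Mertk, Xcr1, Camp and Ngp in naïve Mϕ, of Camp in efferocytic Mϕ and of S100a8 in Eff vs Ctrl were each lost without some 1 sample. The part of these cells in the results was not tested. Of all tested genes, 12.4% (naïve) and 10.7% (efferocytic) were called higher with LPS/IFNγ, and 0.251% were called in Eff vs Ctrl.

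The 8 members together measured 615 and 569 normalized counts (Ctrl), 394 and 357 (Eff), 4426 and 6226 (LPS) and 4924 and 5288 (LPSEff). The sum was thus low in every unstimulated sample and high in every stimulated one, 9.0-fold higher in LPS than in Ctrl and 13.6-fold higher in LPSEff than in Eff. Of the 8 members, 7 passed the filter of a mean of at least 10 normalized counts, and Ifi213 did not. Changes were tested with limma on log2(normalized count + 1), with p-values adjusted over all 16309 genes that passed (Benjamini-Hochberg) and 0.05 as the threshold.

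**Figure D3:**
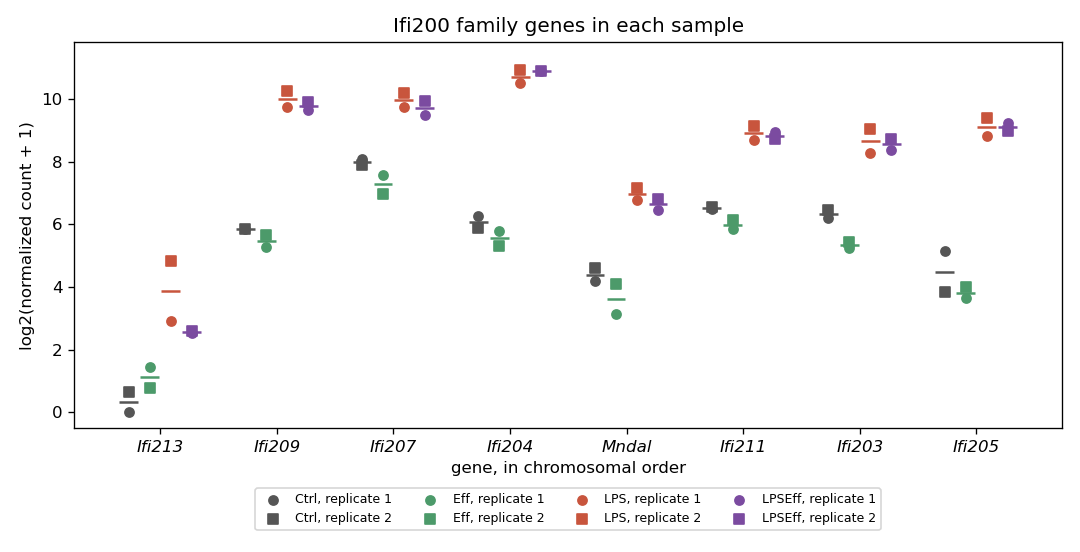
Level of each member in each sample as log2(normalized count + 1) (y axis), with genes in chromosomal order (x axis), circles and squares for replicates 1 and 2, and short lines for the mean of the log2 values. For 7 members both LPS and both LPSEff samples lie far above all Ctrl and Eff samples, and Ifi213 is near 0 without stimulation.

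The comparison of LPS with Ctrl, and of LPSEff with Eff, asked how inflammatory stimulation changed these genes. All 7 tested members rose in naïve Mϕ, where 12.4% of all tested genes were called higher, and all 7 rose in efferocytic Mϕ, where 10.7% were. For each of the 7, both stimulated samples lay above both unstimulated ones in either comparison, where 28.4% and 29.5% of all tested genes did so. The median log2 fold change of the 7 was 2.58 in naïve Mϕ and 3.21 in efferocytic Mϕ, against −0.01 and 0.01 over all tested genes. All 7 tested members kept these calls when any 1 sample was left out, with another count tool or with the replicate number as a block.

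Ifi204, the p204 gene, and Ifi205 had the highest log2 fold changes of the tested members in the fit of all samples, and these differed from each other by less than their SEs. Ifi204 measured 76.2 and 58.4 normalized counts (Ctrl), 1437 and 1943 (LPS), 54.3 and 38.8 (Eff) and 1883 and 1911 (LPSEff). All stimulated samples were well above all unstimulated ones. The log2 fold change was 4.63 (SE 0.25, adjusted p = 3.1e-05 from limma) in naïve Mϕ and 5.34 (SE 0.25, adjusted p = 1.4e-05) in efferocytic Mϕ.

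Ifi205 measured 34.3 and 13.3 normalized counts (Ctrl), 448 and 676 (LPS), 11.4 and 14.8 (Eff) and 602 and 497 (LPSEff). The Ctrl values rest on 18 and 23 reads, and the 2 Ctrl samples differed more from each other than the Eff samples did. Its log2 fold change was 4.62 (SE 0.43, adjusted p = 0.00027 from limma) in naïve Mϕ and 5.29 (SE 0.43, adjusted p = 0.00013) in efferocytic Mϕ. The value in naïve Mϕ was 5.27 without Ctrl replicate 1 and 3.97 without Ctrl replicate 2.

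Ifi209, the member on the plus strand, measured 57.1 and 56.1 normalized counts (Ctrl), 854 and 1204 (LPS), 37.7 and 49.4 (Eff) and 806 and 954 (LPSEff). Again the stimulated and unstimulated samples did not overlap. The log2 fold change was 4.14 (SE 0.24, adjusted p = 3.7e-05 from limma) in naïve Mϕ and 4.31 (SE 0.24, adjusted p = 2.9e-05) in efferocytic Mϕ.

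The other members rose less. Ifi203 measured 72.4 and 87.3 normalized counts (Ctrl), 310 and 519 (LPS), 36.8 and 42.3 (Eff) and 332 and 420 (LPSEff), with log2 fold changes of 2.32 and 3.21. Ifi207 measured 268 and 237 (Ctrl), 851 and 1159 (LPS), 188 and 125 (Eff) and 718 and 970 (LPSEff), with log2 fold changes of 1.97 and 2.44. In each of these genes every stimulated sample lay above every unstimulated one.

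Ifi211, whose counts share most windows with other members, measured 89.5 and 93.1 normalized counts (Ctrl), 411 and 555 (LPS), 56.1 and 69.9 (Eff) and 492 and 419 (LPSEff). Its log2 fold changes were 2.38 and 2.84. Mndal, the MNDA-like gene, measured 17.1 and 23.1 (Ctrl), 109 and 142 (LPS), 7.89 and 16.2 (Eff) and 86.3 and 112 (LPSEff), with log2 fold changes of 2.58 and 3.0. The highest adjusted p among the 7 members was 0.0028 in naïve Mϕ and 0.0016 in efferocytic Mϕ, for Mndal in both.

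Ifi213 was too low to be tested. It had 0 and 1 reads (Ctrl), 5 and 27 (LPS), 2 and 1 (Eff) and 6 and 4 (LPSEff), which is 0 and 0.578, 6.47 and 27.4, 1.75 and 0.706, and 4.75 and 5.08 normalized counts. LPS replicate 2 held most of its reads. The ratio of summed reads, scaled by size factors, was 41.0 for LPS over Ctrl (exact 95% interval 6.86 to 1671, 32 reads against 1) and 4.16 for LPSEff over Eff (1.07 to 23.5, 10 reads against 3), intervals that cover counting error only. When genes with any mean above 0 were tested, it was called in LPS vs Ctrl (adjusted p = 0.027, limma) and not in LPSEff vs Eff (adjusted p = 0.57).

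**Figure D4:**
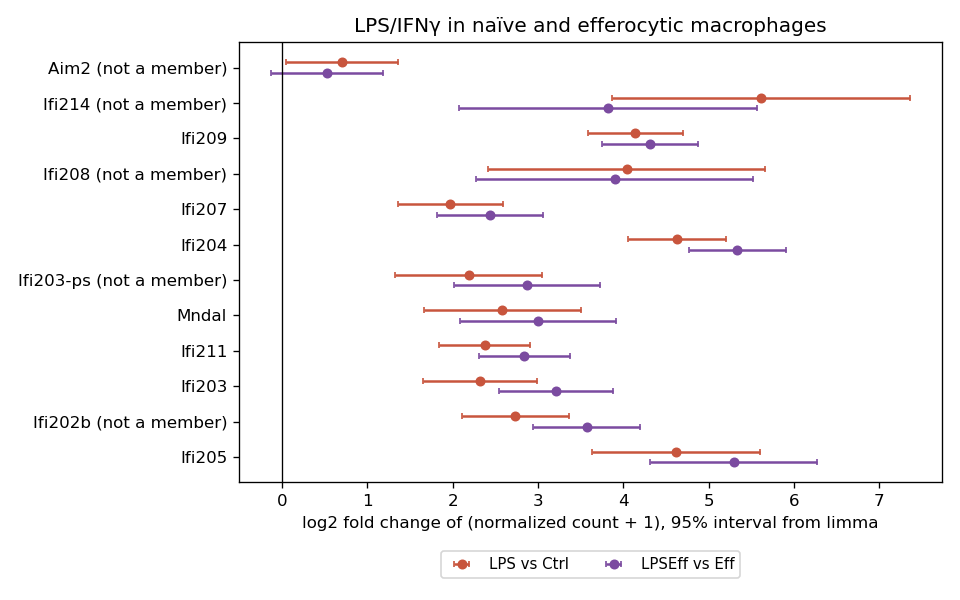
Log2 fold change of (normalized count + 1) with 95% intervals from limma (x axis) for LPS vs Ctrl (red) and LPSEff vs Eff (purple) in the 12 tested PYHIN genes (y axis). The intervals of the 7 members all lie above 0, from 1.97 for Ifi207 to 5.34 for Ifi204 at the point estimates, and Aim2 lies nearest to 0.

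Among the other PYHIN genes, 4 of 5 tested rose in both comparisons. Ifi202b, whose product lacks a pyrin domain, had the highest level per kb of the cluster in each group (520 ± 72.4 in Ctrl). It measured 1028 and 844 normalized counts (Ctrl), 4796 and 7993 (LPS), 529 and 652 (Eff) and 6228 and 7823 (LPSEff) (log2 fold changes 2.73 and 3.57). Ifi214 went from 0 and 4.63 in Ctrl to 82.8 and 160 in LPS, and from 4.38 and 5.65 in Eff to 83.9 and 82.5 in LPSEff (log2 fold changes 5.62 and 3.82). Its value in naïve Mϕ was 4.37 without Ctrl replicate 1, which had no read of it, and 6.86 without Ctrl replicate 2. Ifi203-ps rose by log2 fold changes of 2.19 in naïve and 2.87 in efferocytic Mϕ. Ifi208 was called higher in both, but had only 1 and 2 reads (Ctrl) and 0 and 3 (Eff) against 24 and 51 (LPS) and 29 and 22 (LPSEff). The ratio of its summed reads, scaled by size factors, was 32.1 for LPS over Ctrl (exact 95% interval 10.6 to 159) and 21.2 for LPSEff over Eff (6.86 to 106), for counting error only. The calls of Ifi214 and Ifi208 in efferocytic Mϕ were lost when LPSEff replicate 2 was left out, at an adjusted p of 0.052 and 0.0505 (limma), and that of Ifi214 also without LPSEff replicate 1 (0.059) or Eff replicate 1 (0.056). Ifi206 had 4 and 0 reads (Ctrl), 8 and 41 (LPS), 0 and 0 (Eff) and 4 and 11 (LPSEff), and was not tested.

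Aim2, the inflammasome sensor, differed from its neighbours in size. It measured 211 and 296 normalized counts (Ctrl), 358 and 465 (LPS), 172 and 234 (Eff) and 239 and 348 (LPSEff). The log2 fold change was 0.71 (SE 0.29, adjusted p = 0.12 from limma) in naïve Mϕ and 0.52 (SE 0.29, adjusted p = 0.25) in efferocytic Mϕ, although every stimulated sample was above every unstimulated sample of its own comparison. With the replicate number as a block both were called, at an adjusted p of 0.0031 and 0.017. Its 95% interval reached 1.36 in naïve and 1.18 in efferocytic Mϕ, below the lower limit of 6 of 7 members in naïve Mϕ and of all 7 in efferocytic Mϕ. The difference between Aim2 and the members was not tested.

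Levels were also compared among the 8 members, as normalized counts per kb of exon sequence, and 3 ways of setting the length were tried because the copies share sequence. With the union of all exons, Ifi207 was the highest member in Ctrl at 69.2 ± 6.07 (SD, n = 2) per kb, followed by Ifi211 at 48.6 ± 1.36, Ifi204 at 18.4 ± 3.43 and Ifi209 at 15.5 ± 0.199. In LPS, Ifi204 was the highest member at 461 ± 97.7 per kb, and the next 3 (Ifi209 at 282 ± 68.0, Ifi207 at 275 ± 59.5 and Ifi211 at 257 ± 54.3) overlapped each other. Mndal was lowest of the tested members in LPS at 30.6 ± 5.78 per kb and Ifi213 lowest of all at 1.84 ± 1.61. When the same counts were divided by the length in unique windows, Ifi211 was the highest member in every group. It had 151 ± 4.23 per kb in Ctrl and 800 ± 169 in LPS. Only the length changed (0.604 kb for Ifi211), and the counts were not limited to these windows. The place of Ifi211 thus depends on how shared sequence is treated. With the canonical transcript length, chosen after seeing the data, Ifi205 was second among them in LPS at 319 ± 91.8 per kb and overlapped the next, Ifi209 at 291 ± 70.0.

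The comparison of Eff with Ctrl, and of LPSEff with LPS, asked how efferocytosis changed the same genes. In unstimulated Mϕ all 7 tested members had a negative log2 fold change, from −0.38 for Ifi209 to −0.99 for Ifi203, with a median of −0.68 against −0.01 over all tested genes, but none was called (0.251% of all tested genes were). Over all tested genes, 51.5% had a negative value. The members' values stayed negative without any 1 sample, but that of Ifi205, which is also the median, was −0.03 without Ctrl replicate 1 and −1.33 without Ctrl replicate 2. The edgeR and DESeq2 fits also called 0 members. In 6 of the 7 members (all but Ifi205) both Eff samples lay below both Ctrl samples, where 17.8% of all tested genes did so. For 3 members the unadjusted p was under 0.05, where 2.6% of genes were so and lower.

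Among the members, Ifi203 showed the strongest difference. Its values of 36.8 and 42.3 normalized counts in Eff lay below 72.4 and 87.3 in Ctrl (log2 fold change −0.99, 95% interval −1.66 to −0.33, adjusted p = 0.42 from limma). With the replicate number as a block, its adjusted p was 0.023, and it was then the only member called, where 0.975% of genes were called lower. The intervals of Ifi207 (−1.33 to −0.09) and Ifi211 (−1.07 to −0.002) also lay below 0, whereas those of Ifi204, Ifi205, Ifi209 and Mndal included it.

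Of the other PYHIN genes tested, 0 of 5 were called in Eff vs Ctrl. Ifi203-ps shares windows with Gm71342 and Ifi203, and only 27.2% of its windows occurred in no other gene. It also overlaps exons of Gm71342 and Gm71343 on the same strand, so its counts are uncertain. It measured 17.1 and 24.3 normalized counts in Ctrl and 7.89 and 8.47 in Eff (log2 fold change −1.22, 95% interval −2.08 to −0.37). Both Eff samples were also below both Ctrl samples for Ifi202b (log2 fold change −0.66, interval −1.29 to −0.04) but not for Aim2 (−0.32), Ifi214 (1.33, interval −0.41 to 3.08) or Ifi208, which was near its floor in both groups. With stimulation, both LPSEff samples lay below both LPS samples for Aim2, Ifi208 and Ifi203-ps, where 17% of all tested genes did so, and none of the 5 genes was called.

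With stimulation, LPSEff and LPS overlapped for all 7 members. Of all 16309 tested genes, 3141 had both LPSEff samples above both LPS samples and 2778 had both below, so most genes overlapped too. The log2 fold changes ran from −0.34 for Mndal to 0.18 for Ifi204, with a median of −0.10 against 0.00 over all tested genes, none was called (0.773% of genes were), and 0 had an unadjusted p under 0.05 (10.3% of genes did). The value was negative for 6 of 7 members and for 50.3% of genes, and edgeR and DESeq2 called 0 members. The interval of Ifi204 was −0.39 to 0.76 and that of Ifi203 −0.77 to 0.56, so that changes of either direction within these limits remain possible. The difference between the stimulation responses of efferocytic and naïve Mϕ was positive for all 7 members (51.5% of genes), from 0.17 for Ifi209 to 0.89 for Ifi203 (95% interval −0.05 to 1.83), and called for none. No gene of 16309 was called for this difference by limma, edgeR or DESeq2, and 311 (1.91%) had an unadjusted p under 0.05 in limma, of which 0 were members. This difference and Eff vs Ctrl share their Ctrl and Eff samples.

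**Figure D5:**
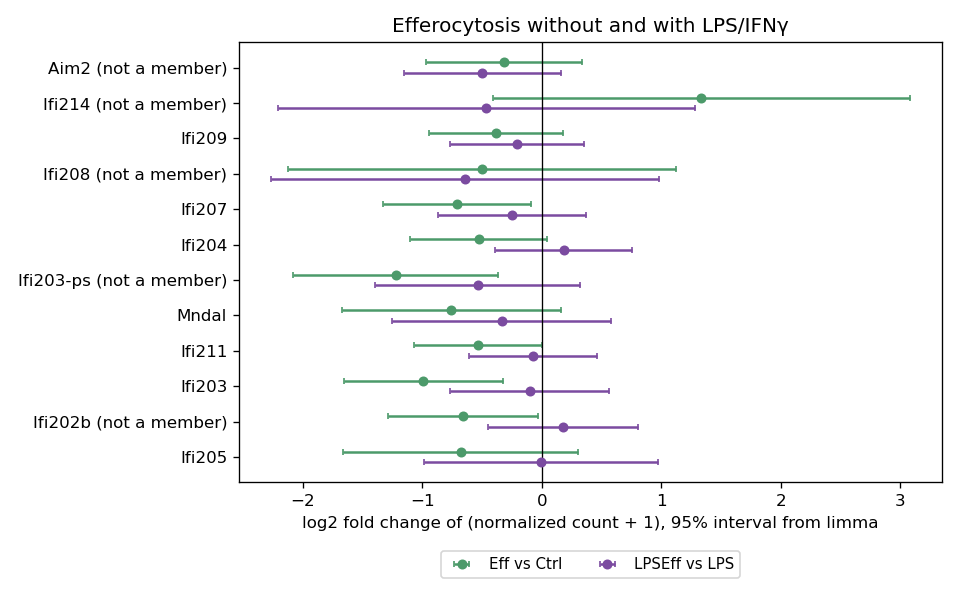
Log2 fold change of (normalized count + 1) with 95% intervals from limma (x axis) for Eff vs Ctrl (green) and LPSEff vs LPS (purple) in the 12 tested PYHIN genes (y axis). In Eff vs Ctrl the 7 members lie between −0.99 and −0.38, and in LPSEff vs LPS all 7 intervals include 0.

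Fibroblast markers moved with the co-culture, and their sum was also higher in LPS than in Ctrl. The 24 genes summed to 1800 to 1868 normalized counts (Ctrl), 4068 to 4571 (LPS), 3399 to 7277 (Eff) and 11496 to 13146 (LPSEff), and 9 of the 22 tested rose in each of Eff vs Ctrl and LPSEff vs LPS. With the replicate number as a block, where 277 and 704 of all 16309 genes rose, 17 and 13 of these markers rose. Fewer markers were called in Eff vs Ctrl without Eff replicate 2, either Ctrl replicate or either LPSEff replicate. Fewer were called in LPSEff vs LPS without either LPSEff or either LPS replicate. Fewer of all tested genes were called higher in these fits as well. Col6a3, a collagen chain, had 4.05 ± 5.72 (SD, n = 2) normalized counts in Ctrl and 813 ± 294 in Eff (adjusted p = 0.018 from limma, and 0.17 without Eff replicate 2, 0.051 without LPSEff replicate 1 and 0.054 without LPSEff replicate 2). Efemp1, a matrix protein with 0 reads in both Ctrl samples, rose in both comparisons, and the collagen chains Col1a2 and Col3a1 were the next named, without and with stimulation. Each lost its call without some 1 sample. With LPS/IFNγ, 3 of the 22 tested fibroblast markers rose in naïve Mϕ (Pdgfrb, Fbn1 and Col5a1, log2 fold changes 4.11, 3.57 and 1.47). In efferocytic Mϕ 2 rose (Fstl1 and Pdgfrb, 2.15 and 2.03). These counts were near the share of all tested genes called higher, 12.4% and 10.7%. However, both stimulated samples lay above both unstimulated ones for 13 and 12 of the 22, where 28.4% and 29.5% of all tested genes did so. The median log2 fold change of the 22 was 1.06 and 0.85, against −0.01 and 0.01 over all tested genes. Under the block 13 and 9 rose, where 3337 and 3101 of all 16309 genes did. Of the genes named for LPS/IFNγ, the calls of Col5a1 and, in efferocytic Mϕ, of Pdgfrb were lost without some 1 sample. No marker was at 0 in all samples. Their part in the member results was not tested.

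The wider pathway lists were counted in the same fits, with 12.4% (naïve) and 10.7% (efferocytic) of all tested genes called higher and 11.6% and 8.95% called lower. Of 32 tested genes of cytosolic DNA sensing and its signalling, 5 rose and 9 fell in naïve Mϕ, and 5 rose and 5 fell in efferocytic Mϕ. When samples were scaled to equal totals instead, 17 and 16 fell while 5 rose in each. Over all 16309 genes, 4315 and 4362 then fell, and 1420 and 1216 rose. With the block 15 and 10 fell, where 3380 and 2932 of all genes did. In naïve Mϕ fewer of the list were called lower without any 1 Ctrl or LPS sample. The same held in efferocytic Mϕ without any 1 Ctrl, Eff or LPSEff sample. Fewer of all tested genes were called lower in these fits as well. The genes that rose included Zbp1, a nucleic acid sensor, with 113 ± 31.4 normalized counts in Ctrl and 2185 ± 240 in LPS (log2 fold change 4.28, adjusted p = 0.00018 from limma), Ifi35 (log2 fold change 2.25) and Ikbke, a kinase of interferon induction (1.82), and in efferocytic Mϕ Trim56 (1.93). Polr3g, a subunit of RNA polymerase III, fell by 2.14 and Xrcc6, the Ku70 gene, fell by 1.64 on the log2 scale in naïve Mϕ. Nlrc3, an inhibitor of STING signalling, fell by 2.08 in naïve and 2.62 in efferocytic Mϕ, where Polr3e fell by 1.47 and Xrcc6 by 1.37. Trim56 and Polr3e moved the same way in naïve Mϕ, with mean normalized counts of 398 and 250 in Ctrl and 1133 and 83.9 in LPS. The call of Ikbke was lost without Ctrl replicate 2 or LPS replicate 1, and that of Xrcc6 in efferocytic Mϕ without LPSEff replicate 1. Nlrc3 lost its call in naïve Mϕ without Ctrl replicate 1 or LPS replicate 2 (−2.70 to −1.46 over single omissions), and in efferocytic Mϕ without Eff replicate 1 or LPSEff replicate 1. Cgas, the DNA sensor that makes cGAMP, and Sting1, its receptor, were looked up after their values were seen and did not pass in naïve Mϕ (log2 fold changes 0.47 and 0.28, adjusted p = 0.20 and 0.61 from limma).

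Among 15 genes of DNA and nucleotide clearance, 5 rose and 3 fell in each comparison, and 5 rose and 5 fell with equal totals. With equal totals, 1420 and 1216 of all 16309 genes rose, and 4315 and 4362 fell. Trex1, a DNA exonuclease, rose from 128 ± 23.8 to 1057 ± 106 normalized counts in naïve Mϕ, and Samhd1, a dNTPase, from 1213 ± 21.6 to 6968 ± 1965. Dnase1l3, a secreted DNase, had the highest log2 fold change of the list (5.42 and 4.95), but its values were uneven, at 5.71 and 5.20 normalized counts (Ctrl), 73.7 and 1023 (LPS), 2.63 and 6.35 (Eff) and 76.0 and 329 (LPSEff). Without 1 sample its value ran from 3.53 to 7.31 and from 3.90 to 6.00, and its call was lost without either Ctrl replicate in naïve Mϕ and without either Eff replicate or LPSEff replicate 2 in efferocytic Mϕ. The genes that fell were Slc19a1, a folate and cyclic dinucleotide carrier, Pld4, an exonuclease, and Dnase2a, the lysosomal DNase, by 1.73, 1.45 and 1.33 on the log2 scale in naïve Mϕ and by 1.46, 0.77 and 1.10 in efferocytic Mϕ. In efferocytic Mϕ all 3 falls lost their calls without Eff replicate 1 or LPSEff replicate 1. Without LPSEff replicate 2, Pld4 and Dnase2a lost theirs. Fewer of all tested genes were called lower in these fits as well. Of 11 partners of the AIM2 inflammasome and lytic cell death, 7 rose and 2 fell in naïve Mϕ, and 8 rose and 1 fell in efferocytic Mϕ, while equal totals gave 5 and 2 in naïve and 6 and 2 in efferocytic Mϕ. In efferocytic Mϕ fewer were called higher without Eff replicate 2, where fewer of all tested genes were too. Il1b, the cytokine IL-1β, rose from 91.3 ± 24.4 to 39815 ± 13718 normalized counts in naïve Mϕ, and Casp4, a caspase that senses LPS, and Nlrp3 rose by log2 fold changes of 3.08 and 2.91. In contrast, Pycard, the adaptor that joins pyrin sensors to caspase-1, fell by 1.32 on the log2 scale, with 2736 ± 421 normalized counts in Ctrl and 1091 ± 103 in LPS (adjusted p = 0.0024, limma). Nlrp1b, another inflammasome sensor, fell by 1.75 in naïve Mϕ (−2.35 to −1.14 over single omissions) and lost its call without either Ctrl replicate or LPS replicate 1.

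Of 16 tested genes of interferon signalling, 13 rose and 0 fell in each comparison, including Irf7, Usp18 and Irf1 with log2 fold changes of 5.25, 4.19 and 3.64 in naïve Mϕ. All 11 guanylate-binding protein genes rose in both comparisons, most of all Gbp6, Gbp2 and Gbp4 in naïve Mϕ (log2 fold changes 6.51, 6.28 and 6.12) and Gbp5, Gbp2 and Gbp6 in efferocytic Mϕ (6.90, 6.83 and 6.78). Of 14 IFIT and OAS genes 13 rose in both, led by Oasl1, Ifit1bl1 and Ifit2 in naïve Mϕ (7.26, 6.73 and 6.64) and by Ifit1, Oasl1 and Ifit2 in efferocytic Mϕ (7.86, 7.79 and 7.39). Of the 99 tested genes of these 6 pathway lists, limma and edgeR called 0 for efferocytosis without stimulation and 0 with it. DESeq2 called 2 and 1, where it called 204 and 368 of all 16309 genes. In limma 18 and 9 had an unadjusted p under 0.05, where 1000 and 1679 of all genes did. With the replicate number as a block, 8 and 6 were called, where 436 and 1137 of all genes were. Over the 8 samples, the genes outside the family whose log2 level ran most like the mean z-score of the 7 members were Irf1 (Pearson r = 0.999), Ifih1 (0.999), Gm5431 (0.999), Gm17334 (0.998) and Dtx3l (0.998), given as a description since all 8 points share the same stimulation contrast.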

How the data were processed

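Total RNA was sequenced after rRNA depletion. The authors trimmed reads (cutadapt), removed rRNA reads (bowtie2), mapped to mm39 (STAR), counted with htseq-count and normalized with DESeq2, and the versions are not given in the sources used here. The deposited values are normalized counts (unit signal), reads divided by size factors. All values were whole reads within 0.01 after division by what 1 read is worth, so reads were recovered. Genes were named with GENCODE vM39. No column of samples outside the series was present.

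The 16309 genes whose mean normalized count reached 10 were tested in limma 3.58.1 (R 4.3.3) with trend on log2(value + 1), all 8 samples together, Benjamini-Hochberg adjusted. DESeq2 1.42.0 and edgeR 4.0.16 were run on recovered reads, rounded to whole numbers, as alternatives. Same-numbered samples deviated together in all 6 pairs of groups (r = 0.404 to 0.595), although the labels state no shared preparation, so the replicate number was tried as a block. On simulated LPS vs Ctrl counts (16087 genes), limma recovered 173 of 196 changed genes, with 14 false calls. It recovered 64% of the 2-fold changes and 96.6% of the changes of 4-fold or more. The simulation used the same spread setting for every gene and no shared deviation of same-numbered samples. It also held far fewer changed genes than were called in the data. Its error rates therefore do not carry over to these data.

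Members and lists were chosen with earlier results of these data known. All members and other PYHIN genes are named, and from each list and comparison up to 3 called genes with the largest rise and fall whose groups did not overlap.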

Additional observations from a re-analysis of the deposited data

Results flagged for a closer look

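In 3 genes of the lists that were followed beside the Ifi200 family, both efferocytic samples moved one way without stimulation and the other way with it. The difference between the responses was tested with limma's interaction term and did not pass in any of them (adjusted p = 0.9999 each). Trim56 measured 402 and 395 normalized counts in Ctrl and 387 and 370 in Eff, but 1158 and 1109 in LPS and 1487 and 1407 in LPSEff, a difference of 0.43 on the log2 scale. Ifit1 measured 78.1 and 53.2 in Ctrl and 38.6 and 23.3 in Eff, but 5530 and 6426 in LPS and 7039 and 7349 in LPSEff, a difference of 1.35. Pdgfrb measured 15.2 and 11.6 in Ctrl and 19.3 and 38.1 in Eff, but 246 and 245 in LPS and 82.3 and 157 in LPSEff, a difference of −2.08. Among the members, Ifi213 also lay higher in both Eff samples than in both Ctrl samples and lower in both LPSEff samples than in both LPS samples. However, no Ctrl or Eff sample held more than 2 of its reads. For this flag, no direction was read where every sample of a comparison had 3 reads or fewer. The flag could not apply to any of the 7 tested members, because their LPSEff and LPS samples overlapped. It therefore does not show whether a tested member moved in opposite ways. The log2 fold change for efferocytosis was negative for all 7 without stimulation and for 6 with it. That of Ifi204 was −0.53 without stimulation and 0.18 with it, and neither value was called.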

How the results depend on the processing

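The counts of members called were 7 and 7 for LPS vs Ctrl and LPSEff vs Eff in the alternatives tried and without any 1 sample (7 to 7), except that testing all genes with a mean above 0 added Ifi213 to LPS vs Ctrl and made 8, and 0 for Eff vs Ctrl, LPSEff vs LPS and the difference of responses without any 1 sample (0 to 0). With the replicate number as a block, 1 member was called in Eff vs Ctrl (Ifi203), and the block changed no other call of a member. The block raised the calls over all genes from 3910 to 6717 in LPS vs Ctrl, from 3213 to 6033 in LPSEff vs Eff, from 41 to 436 in Eff vs Ctrl and from 126 to 1137 in LPSEff vs LPS. Equal totals moved the median of all genes by −0.39 and −0.44 in the stimulation comparisons, and the share of calls that were higher from 51.5% to 24.8% and from 54.6% to 21.8%. Equal totals also raised the LPSEff vs Eff count to 5578. In Eff vs Ctrl, DESeq2 called 204 genes, edgeR 14, a fit of the 2 groups alone 9, and filters of a mean above 0 and of at least 50 gave 79 and 20. In LPSEff vs LPS, DESeq2 called 368 and the 2 groups alone 66. Without any 1 sample the counts over all genes ran from 2076 to 3562, 1567 to 3407, 0 to 45 (0 without Eff replicate 2) and 0 to 84 (0 without LPSEff replicate 1) in the order above. With equal totals the members still rose, by 1.57 to 4.23 and 1.99 to 4.89.

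Small changes turned direction in some settings. Ifi205 in LPSEff vs LPS was 0.0022 with quantile normalization, and Ifi208 in the difference of responses was 0.15 with a pseudocount of 0.5 and 0.036 with quantile normalization. Without any 1 sample, LPSEff vs LPS ran from −0.94 to 0.0073 for Ifi214, −0.46 to 0.039 for Ifi209, −0.034 to 0.40 for Ifi204, −0.29 to 0.14 for Ifi211, −0.47 to 0.27 for Ifi203, −0.20 to 0.54 for Ifi202b and −0.30 to 0.29 for Ifi205. Eff vs Ctrl ran from −1.32 to 0.32 for Ifi208, of which no Ctrl or Eff sample held more than 3 reads. The difference of responses ran from −0.45 to 0.087 for Aim2, −0.073 to 0.42 for Ifi209, −0.96 to 0.68 for Ifi208 and −0.057 to 0.90 for Mndal. None of these was called. The cause was not tested. With 2 samples per group, a lone sample was assumed to vary like the other groups. Ctrl replicate 1 was the shallowest library, and changes of genes near its 3-read level of 5.71 normalized counts are the least certain.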
